A study of Mus musculus with 4 samples.

Results

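Tuft cell genes were examined in mouse stomach with and without a functional Hdc gene. The set was 10 genes by name: Dclk1, Trpm5, Pou2f3, Il25, Gnat3, Alox5ap, Ptgs1, Hpgds, Avil and Gfi1b. A gene counted as measured when a probe set (a group of array probes summarised to 1 value) carried its symbol alone in the platform annotation. By that rule 9 of the 10 were found among 22180 named genes, and Ptgs1, the gene of cyclooxygenase 1, was not analysed here. Stomach tissue came from FVB mice at 1 year of age, with 4 arrays in all: 2 carry the label Hdc+/+ (wild-type arrays) and 2 the label Hdc-/- (knockout arrays). Both genotypes shared strain, age and tissue, and no other allele or agent is named in the labels. Hdc encodes histidine decarboxylase, which makes histamine. Values are log2 probe set values, so a difference of 1 is a doubling. The titles number biological replicates but name no animals, so p-values reflect only the spread between these samples.

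Tuft cells are rare chemosensory cells of the gut epithelium with a brush of microvilli. Pou2f3 is the transcription factor they require. They sense luminal molecules through a taste-type cascade in which a receptor, a G protein and phospholipase C open the channel Trpm5, and they answer with the cytokine interleukin 25, leukotrienes and prostaglandins. Interleukin 25 makes innate lymphoid cells release interleukin 13, which in turn expands tuft and goblet cells. In the stomach Dclk1 is the usual marker, and tuft cells become more frequent in early metaplasia. Several of the 10 genes are active outside tuft cells as well: Alox5ap, Hpgds and Ptgs1 in mast cells and other leukocytes, Gfi1b in megakaryocytes and red cell precursors, and Dclk1 and Avil in neurons. The arrays measured whole tissue, in which fewer cells of a type and less RNA per cell cannot be told apart.

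Array medians over genes lay between 4.56 and 4.60. Hdc itself read 3.99 and 3.82 on the wild-type arrays and 3.77 and 4.06 on the knockout arrays. Probe positions within Hdc are not known here, so its level is no check of the genotypes, and directions rest on the labels. Of 10 stomach epithelial markers all were measured, and their mean was between 11.44 and 11.89 on every array. Markers of adjoining organs differed between arrays. The liver list (9 of 10 genes measured) averaged 8.22 and 10.03 on the wild-type arrays and 4.77 and 4.88 on the knockout arrays. The intestinal list (10 genes) averaged 5.69 and 7.82 against 4.71 and 4.64, and the pancreatic list (7 of 10 genes) 3.83 and 7.89 against 4.24 and 4.15. Wild-type array 2 was therefore the highest for each of these 3 lists. Squamous forestomach markers (9 of 10 genes) averaged 4.57 and 4.92 against 3.77 and 4.18. For the liver, intestinal and squamous lists, both wild-type arrays averaged above both knockout arrays. Each tuft cell result was recomputed with each array left out, but every such fit kept a wild-type array with a liver mean above the knockout arrays. Leaving out an array therefore cannot separate other tissue from genotype, and the part of other tissue in the tuft cell results was not tested.

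No tuft cell gene differed between genotypes by the test over all genes. By limma with Benjamini-Hochberg adjustment over 22180 genes, 0 of the 9 passed in either direction, and their lowest adjusted p was 0.676 (Alox5ap). Over all genes 1 passed higher (0.00451%) and 0 lower (0.00%). Without wild-type array 1 the fit called 3 higher and 158 lower over all genes, and still 0 of the 9. Before adjustment, limma's p was under 0.05 for 0 of the 9 in either direction, against 3.68% of all genes higher and 4.87% lower. The knockout mean was above the wild-type mean for 6 of the 9 and below it for 3, but above for 3 and below for 6 without knockout array 1. Their differences had a median of 0.08 on the log2 scale, beside 0.02 over all genes, and ran from -0.24 (Avil) to 0.54 (Alox5ap). That median was -0.12 without knockout array 1 and 0.22 without knockout array 2. The groups did not overlap for 1 gene in the higher direction (Pou2f3), beside 21.5% of all genes, and for 1 in the lower direction (Avil), beside 17.6%. With 2 arrays per genotype an exact two-sided permutation test of a single gene cannot give a p below 0.333.

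**Figure D1:**
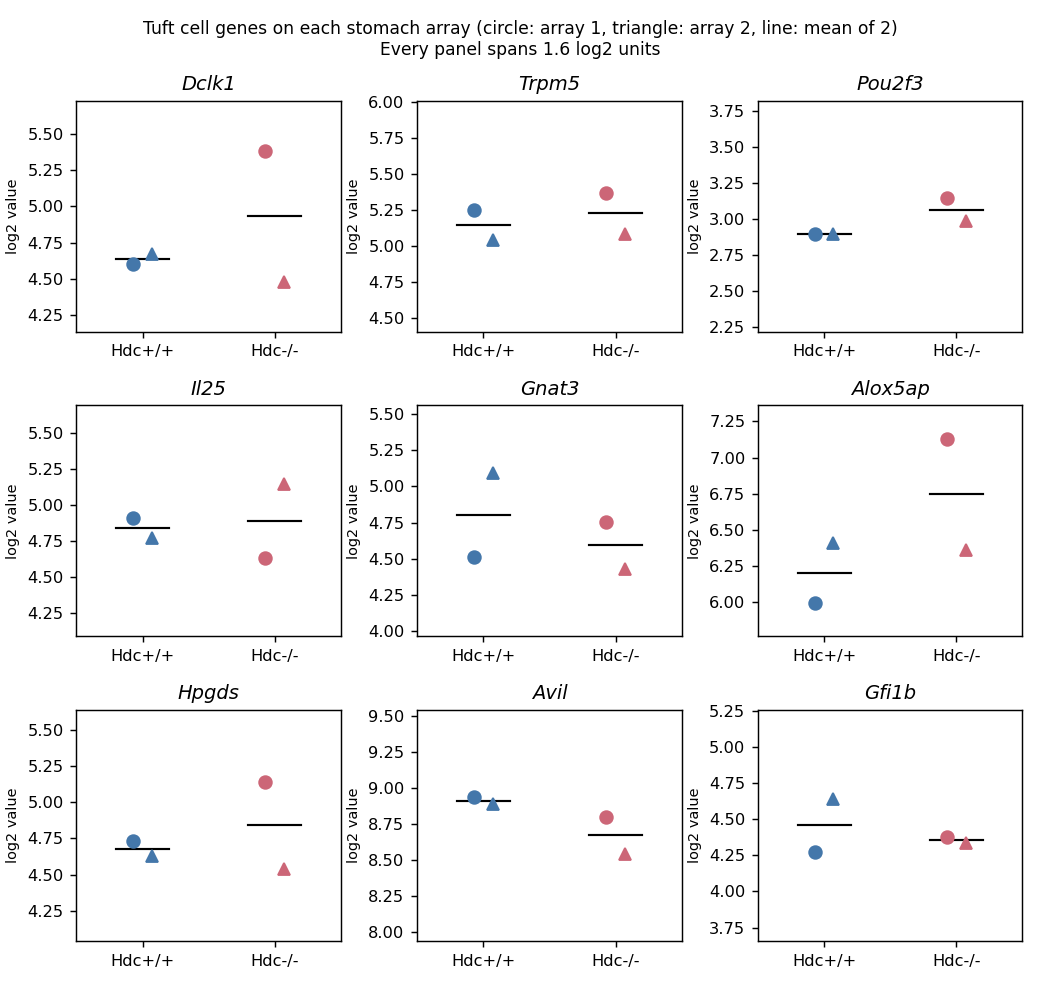
Log2 value (y axis) of the 9 measured tuft cell genes on each array, wild-type (Hdc+/+, blue) and knockout (Hdc-/-, red), with circles for array 1, triangles for array 2 and a line at the mean of 2. Dclk1, Alox5ap and Hpgds were highest on knockout array 1 and near the wild-type arrays on knockout array 2, while only Pou2f3 and Avil showed no overlap between genotypes.

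**Figure D2:**
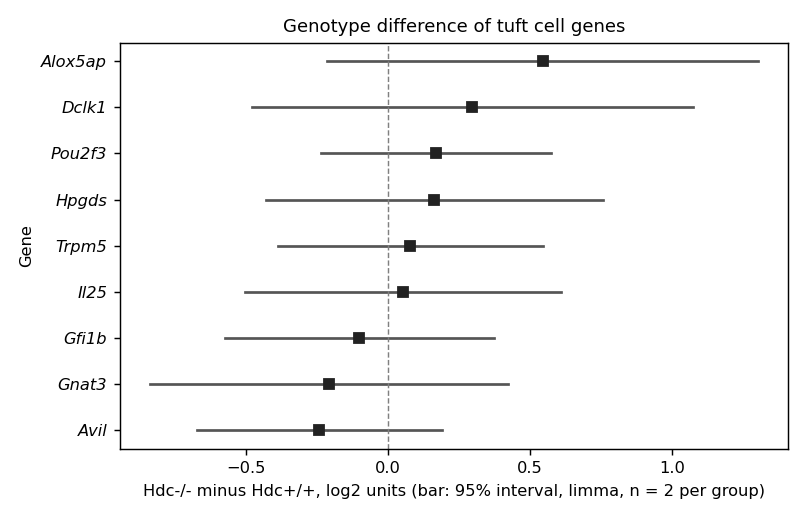
Difference between genotypes (knockout minus wild-type, log2 units, x axis) for the 9 genes, with the 95% interval of the limma fit (n = 2 per group). All 9 intervals include 0; the widest, that of Dclk1, runs from -0.48 to 1.07 and the narrowest, that of Pou2f3, from -0.24 to 0.57.

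Among the identity genes, Dclk1 varied more between the knockout arrays than between genotypes. Dclk1, a kinase that binds microtubules and marks gastric tuft cells, read 4.60 and 4.67 on the wild-type arrays and 5.38 and 4.48 on the knockout arrays. The 2 knockout arrays were thus the highest and the lowest of the 4, with both wild-type arrays between them. The genotype difference was 0.30 (SE 0.31, 95% interval -0.48 to 1.07, adjusted p = 0.849). It was -0.16 without knockout array 1 and 0.75 without knockout array 2, so its direction rested on knockout array 1.

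Pou2f3, the transcription factor that specifies tuft cells, read 2.90 and 2.89 on the wild-type arrays and 3.14 and 2.98 on the knockout arrays. Both knockout arrays lay above both wild-type arrays, by a small margin. The difference was 0.17 (SE 0.16, 95% interval -0.24 to 0.57, adjusted p = 0.831), and it stayed between 0.09 and 0.25 with any 1 array left out. By brightness it ranked at percentiles from 14.5 to 19.8 among genes, depending on the array. No background values were used here, so whether this probe set measured Pou2f3 RNA above background is not known, and probes differ in brightness, so such percentiles do not order genes by RNA level.

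Gfi1b, a zinc finger repressor found in tuft cells and in the red cell and platelet lineages, read 4.27 and 4.64 on the wild-type arrays and 4.38 and 4.33 on the knockout arrays. The knockout arrays fell between the wild-type ones. The difference was -0.10 (SE 0.19, 95% interval -0.58 to 0.37, adjusted p = 0.930), and 0.08 without wild-type array 2. The list of platelet and red cell genes (7 of 10 measured) averaged 4.51 and 4.40 on the wild-type arrays and 4.26 and 4.30 on the knockout arrays. By limma at p under 0.05 before adjustment, 0 were higher and 1 lower, beside 3.68% and 4.87% of all genes. That gene was the platelet chemokine gene Ppbp (-0.87, SE 0.18, adjusted p = 0.342), with Epor, the erythropoietin receptor gene (-0.42), and Gp9, a platelet glycoprotein gene (0.27), next by p.

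Of the 9 further transcription factor genes tied to tuft cells, 7 were measured and 0 passed the test. Their median difference was 0.07, and 0 had an unadjusted limma p under 0.05, beside 3.68% of all genes higher and 4.87% lower. Sox4, which drives an alternative route to tuft cells in the intestine, read 5.12 and 5.39 on the wild-type arrays and 6.70 and 5.62 on the knockout arrays. Both knockout arrays were above both wild-type ones, knockout array 1 by the wider margin (difference 0.91, SE 0.36, adjusted p = 0.584). The homeobox gene Hmx3 differed by 0.25 (SE 0.19) and Gfi1, the close relative of Gfi1b, by -0.21 (SE 0.20).

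Promoter sequence was examined because Pou2f3 belongs to the factors that bind the octamer ATGCAAAT. RefSeq promoter windows (GRCm38.p6, 250 bases before to 50 after a gene start) matched 7 of the 10 genes by symbol, with 8 windows in all, since Dclk1 has 2. The octamer, searched on both strands, was present in the window of 1 gene, Hpgds, and in 570 of all 32851 windows (1.74%). It began 174 bases before the Hpgds start on the gene's strand. The match is a description of letters and shows no binding. The 250 bases before the start of Hpgds (chr6:65144731-65144980, minus strand) are shown because they hold the match, in capitals, and those before both Dclk1 starts (chr3:55242114-55242363 and chr3:55461478-55461727, plus strand) because Dclk1 had the widest gap between the knockout arrays. Which Dclk1 start the probe set reports on is not known here.
Hpgds: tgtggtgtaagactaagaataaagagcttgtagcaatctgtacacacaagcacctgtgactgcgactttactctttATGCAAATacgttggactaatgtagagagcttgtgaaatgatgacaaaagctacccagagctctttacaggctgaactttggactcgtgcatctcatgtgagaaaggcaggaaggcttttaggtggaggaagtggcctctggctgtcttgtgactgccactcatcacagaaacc
Dclk1, upstream start: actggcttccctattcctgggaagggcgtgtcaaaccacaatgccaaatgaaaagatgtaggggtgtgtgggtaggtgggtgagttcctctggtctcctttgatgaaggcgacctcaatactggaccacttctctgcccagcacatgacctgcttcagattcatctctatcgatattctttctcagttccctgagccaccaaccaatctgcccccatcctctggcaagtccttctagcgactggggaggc
Dclk1, downstream start: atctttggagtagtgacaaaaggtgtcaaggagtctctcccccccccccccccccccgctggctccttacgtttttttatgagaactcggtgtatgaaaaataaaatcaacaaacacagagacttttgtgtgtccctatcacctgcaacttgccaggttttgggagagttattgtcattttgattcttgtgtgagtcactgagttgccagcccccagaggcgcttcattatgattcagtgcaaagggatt

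In the taste-type cascade, the channel and the G protein gene did not separate the genotypes. Trpm5, the cation channel that depolarises the cell, read 5.25 and 5.05 on the wild-type arrays and 5.37 and 5.09 on the knockout arrays. The pairs interleaved, knockout array 1 being the highest and wild-type array 2 the lowest. The difference was 0.08 (SE 0.19, 95% interval -0.39 to 0.54, adjusted p = 0.953). Its sign changed with the arrays used, at -0.06 without knockout array 1 and -0.02 without wild-type array 2.

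Gnat3, which encodes the alpha subunit gustducin, read 4.51 and 5.09 on the wild-type arrays and 4.75 and 4.43 on the knockout arrays. Wild-type array 2 was the highest and knockout array 2 the lowest. The difference was -0.21 (SE 0.25, 95% interval -0.84 to 0.42, adjusted p = 0.872) and became 0.08 without wild-type array 2.

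Of the 11 other genes listed for taste-type signalling, 10 were measured and 0 passed. Their median difference was 0.13. At an unadjusted limma p under 0.05 there were 1 higher and 0 lower, beside 3.68% and 4.87% of all genes. That gene was Itpr3, the calcium release channel downstream of phospholipase C, which read 8.40 and 8.45 on the wild-type arrays and 8.90 and 8.79 on the knockout arrays (difference 0.42, SE 0.16, adjusted p = 0.565). The gap between genotypes for Itpr3 was wider than the gap within either. The succinate receptor gene Sucnr1 read highest on wild-type array 2 (4.36, against 3.32 to 3.53 elsewhere; difference -0.54, SE 0.30). The fatty acid receptor gene Ffar3 read highest on knockout array 1 (3.26, against 2.18 to 2.47 elsewhere; difference 0.47, SE 0.33). Rgs13, a regulator of G protein signalling found in tuft and mast cells and chosen after its values were seen, read 4.85 and 4.82 on the wild-type arrays and 6.26 and 3.97 on the knockout arrays. As with Dclk1, the knockout arrays were its highest and lowest.

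Among the lipid mediator genes, Alox5ap had the largest difference of the 9 by its brighter probe set, but not with its probe sets averaged (0.26, below Dclk1) or without knockout array 1. Alox5ap, the membrane protein that hands arachidonic acid to 5-lipoxygenase for leukotriene synthesis, read 5.99 and 6.41 on the wild-type arrays and 7.13 and 6.36 on the knockout arrays. Knockout array 1 stood above the other 3, and knockout array 2 lay between the wild-type arrays. The difference was 0.54, or 1.46-fold (SE 0.30, 95% interval -0.21 to 1.30, adjusted p = 0.676). It was 0.16 without knockout array 1 and 0.93 without knockout array 2. A second, dimmer Alox5ap probe set disagreed. It read 4.44 and 3.98 on the wild-type arrays and 4.25 and 4.12 on the knockout arrays, with knockout array 1 within the wild-type range and a difference of -0.03.

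Hpgds, the synthase that makes prostaglandin D2, read 4.73 and 4.63 on the wild-type arrays and 5.14 and 4.54 on the knockout arrays. Like Dclk1 it had its highest and lowest values on the 2 knockout arrays. The difference was 0.16 (SE 0.24, 95% interval -0.43 to 0.76, adjusted p = 0.900), and -0.14 without knockout array 1.

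The list of other eicosanoid enzymes and receptors had 12 of 13 genes measured and 0 passing, with a median difference of 0.01. At an unadjusted limma p under 0.05 there were 1 higher and 1 lower, beside 3.68% and 4.87% of all genes. Pla2g4a, the phospholipase that releases arachidonic acid, read 6.46 and 6.37 on the wild-type arrays and 8.74 and 7.08 on the knockout arrays. Both knockout arrays were above both wild-type arrays, with knockout array 1 far ahead (difference 1.49, SE 0.52, adjusted p = 0.531). Hpgd, which inactivates prostaglandins, read 10.486 and 10.503 on the wild-type arrays and 9.871 and 10.001 on the knockout arrays. Its genotypes were apart by more than either pair differed (difference -0.56, SE 0.16, adjusted p = 0.456). Alox5, the 5-lipoxygenase gene that works with Alox5ap, read 5.15 and 5.04 against 5.82 and 5.30 (difference 0.47, SE 0.22, adjusted p = 0.627). For Pla2g4a and Alox5, as for Alox5ap, knockout array 1 was the highest.

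The cytokine of the set went the other way on knockout array 1. Il25, the signal from tuft cells to innate lymphoid cells, read 4.91 and 4.77 on the wild-type arrays and 4.63 and 5.15 on the knockout arrays. Knockout array 1 was the lowest of the 4 and knockout array 2 the highest. The difference was 0.05 (SE 0.22, 95% interval -0.50 to 0.61, adjusted p = 0.976), with values of -0.21 without knockout array 2 and -0.02 without wild-type array 2.

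Of 16 genes of the type 2 circuit around interleukin 25, 13 were measured and 0 passed. By limma, 0 of the 13 had an unadjusted p under 0.05, beside 3.68% of all genes higher and 4.87% lower. Their median difference was -0.01 and their mean -0.19. Retnlb, a goblet cell protein induced by interleukin 13, read 3.48 and 4.79 on the wild-type arrays and 3.01 and 3.29 on the knockout arrays (difference -0.98, SE 0.43, adjusted p = 0.602). Its higher wild-type mean came mostly from wild-type array 2, where the intestinal list was also highest. The part of intestinal tissue in it was not tested. Il33, the gene of an epithelial and stromal alarmin, read 8.53 and 7.92 against 7.87 and 5.95 (difference -1.31, SE 0.62, adjusted p = 0.626). Its low mean came mostly from knockout array 2. Il4ra, the receptor chain shared by interleukins 4 and 13, differed by 0.32 (SE 0.17). Il13 itself, chosen after its values were seen, read 3.92 and 3.72 against 4.12 and 3.97 (adjusted p = 0.774). Clca1 of the same list, also chosen after its values were seen, read 9.82 and 10.40 against 11.87 and 6.60. Unlike Retnlb, it was highest on knockout array 1 and lowest on knockout array 2.

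Avil was the 1 gene of the set with both knockout values below both wild-type values. It encodes advillin, an actin-binding protein of the villin family found in the tuft cell brush and in sensory neurons. Avil read 8.94 and 8.89 on the wild-type arrays and 8.80 and 8.55 on the knockout arrays, and knockout array 2 was the lowest. The difference was -0.24, or 0.846-fold (SE 0.17, 95% interval -0.67 to 0.19, adjusted p = 0.754). It kept its sign with any 1 array left out, from -0.37 to -0.12. Its probe set was bright on all 4 arrays, at percentiles from 96.7 to 97.4. Vil1, the gene of the related protein villin, which absorptive intestinal cells also express, read 7.19 and 8.33 on the wild-type arrays and 7.19 and 5.87 on the knockout arrays.

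The list of other tuft cell markers, to which Vil1 belongs, had 15 of 16 genes measured and 0 passing. Their median difference was 0.17. At an unadjusted limma p under 0.05 there were 1 higher and 0 lower, beside 3.68% and 4.87% of all genes. Sh2d7, an adaptor gene, read 3.997 and 4.128 on the wild-type arrays and 5.07 and 4.45 on the knockout arrays. Its knockout arrays were both above the wild-type ones (difference 0.70, SE 0.24, adjusted p = 0.535). Siglecf, a sialic acid receptor gene of tuft cells and eosinophils, read 4.61 and 4.68 against 5.60 and 4.89 (difference 0.60, SE 0.26, adjusted p = 0.603), and Vil1 differed by -1.23 (SE 0.54, adjusted p = 0.603). Il17rb, which encodes a receptor chain for interleukin 25 and was chosen after its values were seen, read 2.82 and 2.90 against 3.18 and 3.18 (difference 0.32, SE 0.16, adjusted p = 0.633).

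The gap between the 2 knockout arrays was wider than the genotype difference for 7 of the 9 genes, all but Pou2f3 and Gfi1b, as it was for 58.5% of all genes. Knockout array 1 read above knockout array 2 for 8 of the 9, beside 46.9% of all genes, with a median gap of 0.28 beside -0.02 over all genes. The gap was 0.90 for Dclk1, and 1.97% of all genes had one at least as large in that direction. It was 0.77 for Alox5ap (3.16% of genes) and 0.60 for Hpgds (6.32%). For Trpm5 it was 0.28 (19.7%) and for Pou2f3 0.16 (29.8%), which is common among genes. Il25 had a gap of -0.52, and 6.70% of genes went at least as far in that direction. Knockout array 1 held the highest value for 5 of the 9 genes (Dclk1, Trpm5, Pou2f3, Alox5ap and Hpgds), beside 27.2% of all genes. Wild-type array 2 held it for 2 (Gnat3 and Gfi1b), wild-type array 1 for 1 (Avil) and knockout array 2 for 1 (Il25), beside 19.8%, 23.5% and 29.6% of all genes. Among the 15 other tuft markers, knockout array 1 was the highest for 10 and read above knockout array 2 for 13. In the remaining tuft-related lists, knockout array 1 read above knockout array 2 for 5 of 10 taste-type signalling genes and 6 of 12 eicosanoid genes. It did so for 4 of 7 transcription factor genes and 8 of 13 genes of the type 2 circuit, beside 46.9% of all genes. Knockout array 1 was the highest of the 4 arrays for 5, 4, 4 and 5 genes of these lists in that order, beside 27.2% of all genes. These counts were made after the arrays' values were seen, and a single array has no replicate check.

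**Figure D3:**
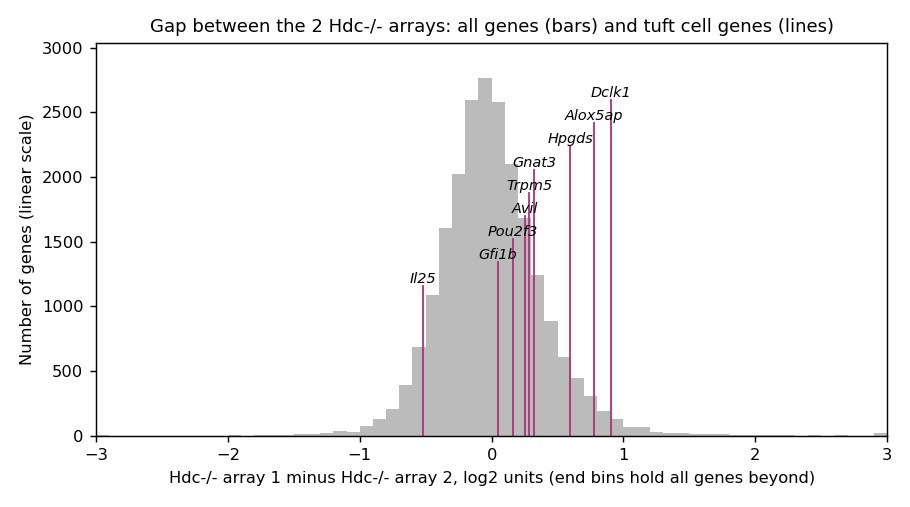
Histogram of the gap between the 2 knockout arrays (array 1 minus array 2, log2 units, x axis) for all 22180 genes, with the number of genes on the y axis, and lines at the 9 tuft cell genes (line height has no meaning). Dclk1 (0.90), Alox5ap (0.77) and Hpgds (0.60) lie on the right shoulder, 5 genes lie between 0.05 and 0.32, and Il25 (-0.52) lies on the left.

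Mast cell markers were high on knockout array 1 as well. All 10 genes of the mast cell list were measured, and their mean was 4.60 and 4.81 on the wild-type arrays and 6.52 and 4.43 on the knockout arrays. Knockout array 1 read above knockout array 2 for all 10, beside 46.9% of all genes, and was the highest of the 4 for 9, beside 27.2%. These counts too were made after the values were seen. Mcpt1, a protease of mucosal mast cells, read 3.23 and 3.70 on the wild-type arrays and 9.41 and 4.54 on the knockout arrays (difference 3.50, SE 1.47, adjusted p = 0.594). Kit, the stem cell factor receptor gene, differed by 0.74 (SE 0.28, adjusted p = 0.560), and Mcpt4, a connective tissue mast cell protease gene, by -1.14 (SE 0.49, adjusted p = 0.602). Fcer1a, the IgE receptor gene that defines mast cells and basophils, chosen after its values were seen, read 2.24 and 2.36 against 5.19 and 1.88. Mast cells make both Alox5ap and Hpgds RNA, and the part of mast cells in the values of these genes on knockout array 1 was not tested. Muc6, a mucus gene of neck and gland cells chosen after its values were seen, also read highest there, at 11.94 against 8.40 to 9.30 elsewhere.

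**Figure D4:**
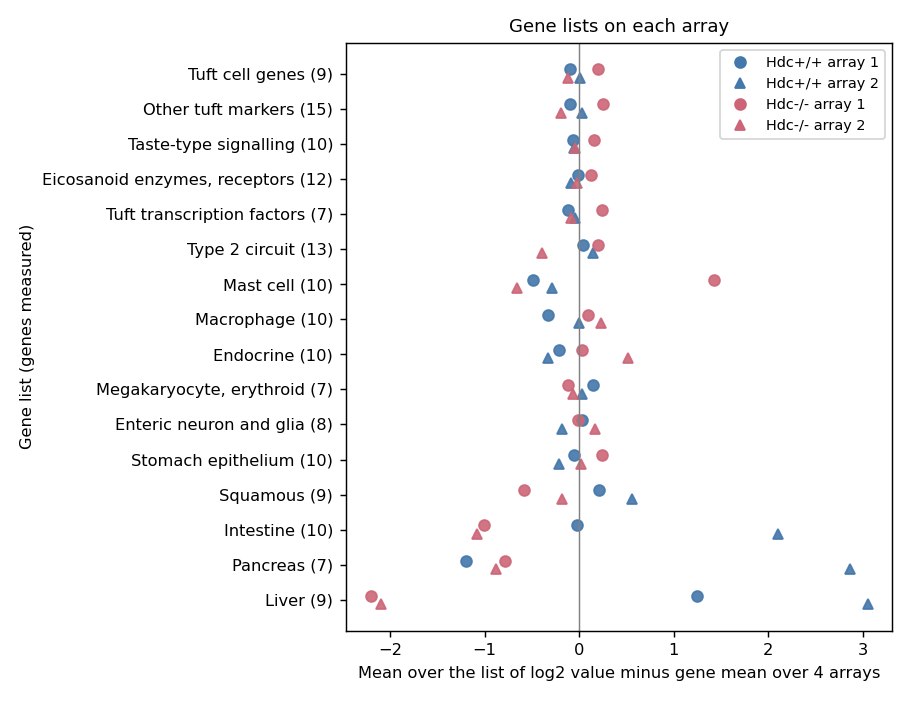
Mean over each gene list of the log2 value minus the gene's mean over the 4 arrays (x axis), for the tuft cell genes and 15 other lists (y axis, genes measured in brackets), with circles for array 1 and triangles for array 2 of the wild-type (blue) and knockout (red) genotype. The tuft cell genes sit at 0.20 on knockout array 1 and between -0.12 and 0.01 elsewhere, the mast cell list at 1.43 against -0.66 to -0.28, and the liver, intestinal and pancreatic lists are highest on wild-type array 2.

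The macrophage, enteric neuron and endocrine lists were on average highest on knockout array 2. The macrophage list (10 of 10 measured) averaged 5.60 and 5.92 on the wild-type arrays and 6.02 and 6.17 on the knockout arrays, with 0 passing. Where limma's p before adjustment was under 0.05 there were 4 higher and 0 lower, beside 3.68% and 4.87% of all genes. Adgre1, Lyz2 and Cd68, markers of macrophages, had the smallest p and differed by 0.66, 0.86 and 0.66. The knockout mean was below the wild-type mean for 2 of the 10, Cd14 (-0.31) and Mrc1 (-0.20). The list of enteric neurons and glia (8 of 10 measured) averaged 4.13 and 3.92 against 4.10 and 4.27. Its median difference was 0.03, with the knockout mean above the wild-type mean for 5 genes and below it for 3, 1 gene higher at an unadjusted limma p under 0.05 and 0 passing. The receptor kinase gene Ret (0.83), the synaptic gene Snap25 (0.48) and the glial gene S100b (0.19) had the smallest p. Unlike the list's mean, Ret was highest on knockout array 1 (5.60, against 5.04 on knockout array 2). The endocrine list (10 of 10) averaged 6.02 and 5.90 against 6.26 and 6.75, with 3 higher at that p and 0 passing. Its genes with the smallest p were Chga (1.89), Slc18a2 (1.42) and Chgb (0.92), of endocrine granules, while 2 of the 10 had a knockout mean below the wild-type mean, the hormone gene Gast (-0.82) and the granule gene Scg5 (-0.29). The part of these cells in the tuft cell gene values was not tested. That covers neurons for Dclk1 and Avil, and macrophages, as leukocytes, for Alox5ap and Hpgds.

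The genes whose profile over the 4 arrays came nearest to a tuft cell gene were sought for the 3 with the widest range, Alox5ap (1.14), Dclk1 (0.90) and Gnat3 (0.66). Likeness was the root mean square distance between values centred on each gene's mean, over 4 arrays. Nearest to the brighter Alox5ap probe set were Itgae (distance 0.04), Uchl3 (0.05), Ifih1 (0.06), Pcdhb8 (0.07) and P4ha1 (0.07). The dimmer Alox5ap probe set, which had a different profile, was not used. Itgae read 3.83 and 4.20 on the wild-type arrays and 5.02 and 4.17 on the knockout arrays. Nearest to Dclk1 were Aggf1 (0.03), Lsm3 (0.03), Mir7-1 (0.03), Skida1 (0.03) and Nbas (0.04). Nearest to Gnat3 were Olfr689 (0.02), Mmp14 (0.02), Lifr (0.02), Klra14-ps (0.03) and Slc20a1 (0.03). No gene of the other tuft cell lists was among these 15, and with 4 arrays many of the 22180 genes come close to any given profile.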

How the data were processed

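The authors deposited log2 probe set values for 4 Affymetrix arrays, normalized with RMA. The submitters' processing notes list RMA beside oligo and Affymetrix Power Tools, with no version. RNA was extracted with Trizol, and 5.5 ug was labelled with biotin, per the labels' protocols. The probes' genome build was not given in the sources used here. Of 41345 probe sets, 23521 had 1 gene symbol in the platform annotation, and the brightest stood for each gene, leaving 22180. Knockout arrays were compared with wild-type arrays by limma 3.58.1 (R 4.3.3; lmFit and eBayes, no covariate, adjusted p threshold 0.05), with 2 residual and 3.62 prior degrees of freedom. The script was tested on simulated data. All intervals are 95% intervals of that fit, and each genotype had n = 2, which limits the precision.

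The members, lists and rules were chosen with earlier results of these data known. All 10 genes were named, with 3 genes of the smallest p for most lists and the 5 nearest profiles for 3 genes, passing over models without a proper name. The liver, intestinal, pancreatic, squamous and stomach epithelial lists were given only as means, apart from Muc6. Alternatives left out dim genes or an array, averaged probe sets, renormalized, changed the prior, tested every probe set or used the replicate number as a block.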

Additional observations from a re-analysis of the deposited data

How the results depend on the processing

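With 4 arrays, none of the 61 member differences computed under other settings passed, with a lowest adjusted p by limma of 0.564. All kept their direction, but most settings could not change it. Leaving out dim genes, changing the prior, testing every probe set or using the block leaves a difference as it was. Averaging changed only Alox5ap, and centring arrays on their median shifted all genes alike. Quantile normalizing again recomputed every difference. The dimmer Alox5ap probe set (-0.03) was not among the 61. With an array left out, 8 of 36 changed direction and 0 passed: Dclk1 ranged from -0.16 to 0.75, Trpm5 from -0.063 to 0.22, Il25 from -0.21 to 0.31, Hpgds from -0.14 to 0.46, Gnat3 from -0.50 to 0.084 and Gfi1b from -0.28 to 0.081. The member median ranged from -0.12 (without knockout array 1) to 0.22 (without knockout array 2), beside -0.0012 to 0.05 over all genes. Over all genes limma called 1 higher and 0 lower; with an array left out it called 0 to 3 higher and 0 to 158 lower, the 158 without wild-type array 1. A trended and robust prior gave 3 higher and 2 lower. Testing every probe set gave 0 higher, with 1404 at an unadjusted p under 0.05. Same-numbered arrays did not deviate together (correlation -0.12 across genes, which are not replicates), which does not show whether they share a batch. With the number as a block, 1 gene was called higher and 6 lower, and no member passed. With the numbers crossed between genotypes, chosen after seeing the data, 0 were called higher and 0 lower, with 923 and 1183 at an unadjusted p under 0.05. The cause of these changes was not tested. With the dimmer 50% of genes left out, 7 of the 9 genes remained. Without background values, signal over background could not be set for any probe set.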
